A study of Drosophila melanogaster with 59 samples.

Results

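The RNA of unfertilized Drosophila melanogaster eggs was compared between the Red* line and w1118 over the 6631 genes, of 17558 listed, with more than 1 FPKM in at least 2 of the 4 long RNA libraries of these lines. FPKM are fragments mapped per kilobase of transcript, scaled to the size of the library, so a level is given per length of the gene. Each line had 2 libraries. The choice of genes used levels only, but 54 genes passed through Red* libraries alone and 69 through w1118 libraries alone, which ties their level to the line. Such a gene passed because 1 line was high, so its values and log2 difference are given as a description with no test, and it is marked as over the minimum in 1 line alone.

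Both lines share the w1118 allele of the white gene, under a strain label of Oregon-R. Red* flies carry in addition the Fab2L transgenic insertion, which places a Polycomb response element beside a mini-white eye-colour reporter, and they are one of the sublines named by eye colour that were derived from Fab2L; w1118 flies carry no insertion. White*, the other derived subline, and Fab2L itself, with 2 egg libraries each, are given beside them. The labels give the stage as unfertilized eggs and no age, and they name adult male heads in the extraction text of the same samples. The study asked about inheritance of Polycomb-dependent chromatin states over generations.

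An unfertilized egg holds the RNA its mother loaded during oogenesis. Transcription of the embryonic genome has not begun, so maternal messages for the axis, the germ plasm, the first divisions, chromatin assembly and small RNA silencing fill the library. Polycomb repressive complex PRC2 methylates histones and PRC1 compacts the marked chromatin, and both are supplied to the early embryo as maternal products.

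The libraries carried the transcripts of such eggs. The 10 maternal germ line markers found, among them osk, nanos, bcd and gcl, all passed the level minimum, and their summed level was 1722 and 1568 FPKM in Red* eggs, against 1713 and 1688 FPKM in w1118 eggs. Testis and sperm markers summed to 0.122 and 0.0942 FPKM in Red* eggs, against 0.186 and 0.366 FPKM in w1118 eggs, and 8 of those 16 genes were at 0 in all 4 libraries. Of 12 photoreceptor and neuron markers found, which a head library would carry, 3 passed the minimum, and their list summed to 24.99 and 24.8 FPKM in Red* eggs, against 25.7 and 25.9 FPKM in w1118 eggs. The libraries held 33051665 and 28626949 reads in Red* eggs and 34914202 and 35638108 reads in w1118 eggs, recovered from the FPKM steps. One library stood apart: transcripts of the mitochondrial genome took 1.52% of the reads of Red* replicate 1 and 0.339% of those of Red* replicate 2, against 1.99% and 1.80% in w1118 eggs. In bulk RNA, fewer cells or eggs with a transcript and less of it in each cannot be told apart.

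At an adjusted p below 0.05 in limma, with Benjamini-Hochberg adjustment over all 6631 genes, 1501 genes were called higher in Red* and 1447 lower, 44.5% of those tested (22.6% higher and 21.8% lower). Most of these differences were small. The median size of a called difference was 0.32 on the log2 scale, and 2269 of the 2948 called genes differed by less than 0.5. A difference of at least 1 was called for 85 genes higher in Red* (1.28% of those tested) and 148 lower (2.23%). These include 27 higher and 29 lower copies of the replication-dependent histone genes, which are near-identical and not separate results. All totals and list counts include genes over the minimum in 1 line alone, whose direction the filter favours. Of the 54 such genes in Red*, 48 were called higher, and of the 69 in w1118, 64 were called lower. Among the other 6508 genes, 1453 were called higher and 1383 lower, or 43.6%. The median SD between the 2 libraries of a line was 0.05 in Red* and 0.05 in w1118 on the same scale. All 2948 called genes had non-overlapping values in the 2 lines, and so had 4926 of the genes tested. Without w1118 replicate 2, 998 genes were called higher and 863 lower.

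The balance of higher and lower calls depended on scaling. The 20 most abundant genes took 14.4% and 14.5% of the reads in Red* eggs, against 19.9% and 18.7% in w1118 eggs. When they were removed and the libraries rescaled to equal sums, the median difference of all genes was 0.21 instead of -0.01, and 3429 genes were called higher and 488 lower. Of the 85 genes called higher by at least 1, all 85 were still called higher after the rescaling. Since the rescaling moved the median upward, it could hardly have removed a higher call of that size. Of the 148 called lower by at least 1, 145 were still called lower. Both copies of the signal recognition particle RNA, called lower by at least 1, were among the genes removed and so could not be called again. Because the median moved, medians of several lists are also given relative to the median of all genes.

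**Figure D1:**
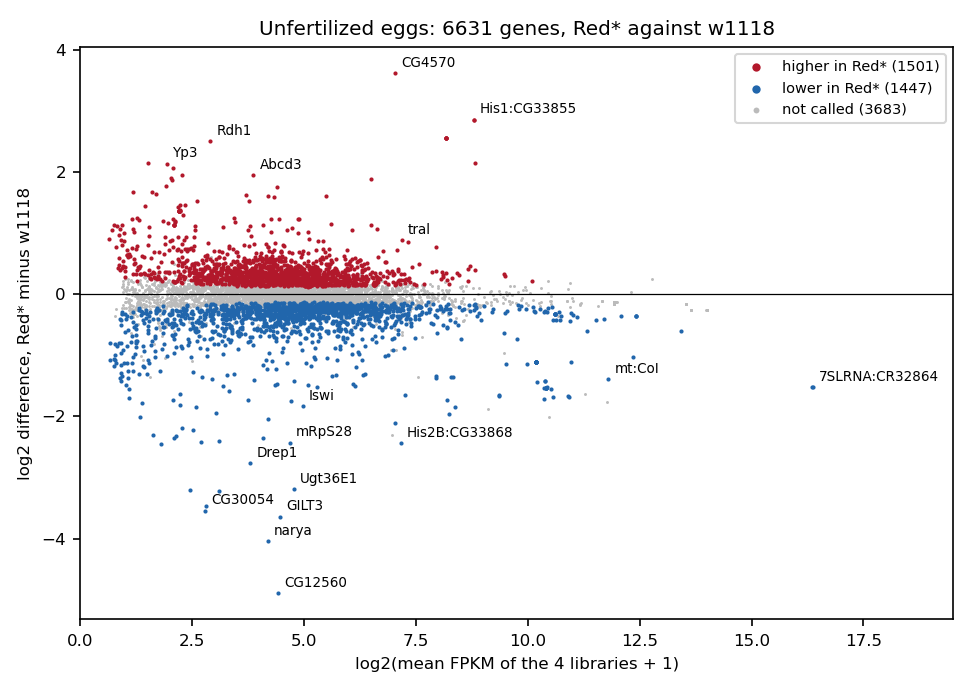
Each point is 1 of 6631 genes, with the log2 of its mean FPKM plus 1 over the 4 libraries on the x axis and the log2 difference, Red* minus w1118, on the y axis; red and blue points are the 1501 higher and 1447 lower calls. Most calls lie within 0.5 of 0, while CG4570 at 3.63 and CG12560 at -4.89 (over the minimum in w1118 alone) mark the ends.

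The largest differences were in messages that w1118 eggs carried at moderate levels and Red* eggs at low ones. CG12560 had 0.286 and 0.502 FPKM in Red* eggs, against 39.2 and 41.4 FPKM in w1118 eggs (log2 difference -4.89, over the minimum in w1118 alone). It lies at chr2L:8008302-8009477 in the release 6 assembly, and its levels come from 10 and 16 reads in Red* eggs, against 1292 and 1406 reads in w1118 eggs. The 2 lines did not overlap, and 0.124 and 0.297 FPKM in White* eggs and 0.233 and 0.143 FPKM in Fab2L eggs put those lines with Red*.

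narya encodes a RING-domain protein needed for meiotic double-strand breaks. It had 1.15 and 1.04 FPKM in Red* eggs, against 34.4 and 32.4 FPKM in w1118 eggs (log2 difference -4.04, SE 0.08, adjusted p = 7.42e-08). White* and Fab2L eggs held more of it than Red* eggs and far less than w1118 eggs, at 4.05 and 3.31 FPKM in White* eggs and 3.10 and 3.26 FPKM in Fab2L eggs. GILT3, named for a lysosomal thiol reductase family, had 2.5 and 2.06 FPKM in Red* eggs, against 39.6 and 40.04 FPKM in w1118 eggs (log2 difference -3.64, SE 0.07, adjusted p = 5.69e-08). Both genes were low in every library of Red* and high in every library of w1118.

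Drep1, which encodes a relative of the DNA fragmentation factor that degrades nuclear DNA in dying cells, had 2.57 and 2.55 FPKM in Red* eggs, against 23.97 and 22.5 FPKM in w1118 eggs (log2 difference -2.77, SE 0.07, adjusted p = 1.53e-07). The UDP-glycosyltransferase gene Ugt36E1 had 4.46 and 4.28 FPKM in Red* eggs, against 46.9 and 49.5 FPKM in w1118 eggs (log2 difference -3.19, SE 0.05, adjusted p = 4.91e-08). RpS10a, a paralog of the ribosomal protein gene RpS10b that lies within the span of tau, had 0.565 and 0.724 FPKM in Red* eggs, against 14.3 and 14.4 FPKM in w1118 eggs (log2 difference -3.23, over the minimum in w1118 alone). mRpS28, a protein of the mitochondrial ribosome, had 6.46 and 7.54 FPKM in Red* eggs, against 39.99 and 44.2 FPKM in w1118 eggs (log2 difference -2.43, SE 0.11, adjusted p = 2.38e-06). In each of these 4 genes the w1118 libraries lay several-fold above those of Red*.

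Some genes were close to absent from Red* eggs. GLaz, a lipocalin related to apolipoprotein D, had 0.0468 and 0.0771 FPKM in Red* eggs, against 8.75 and 8.93 FPKM in w1118 eggs (log2 difference -3.21, over the minimum in w1118 alone), which rests on 2 and 3 reads in Red* eggs, against 352 and 370 reads in w1118 eggs. CG30054 had 0.0761 and 0.0836 FPKM in Red* eggs, against 11.1 and 12.1 FPKM in w1118 eggs (log2 difference -3.54, over the minimum in w1118 alone) and CG12519 had 0.0947 and 0.208 FPKM in Red* eggs, against 10.3 and 13.4 FPKM in w1118 eggs (log2 difference -3.47, over the minimum in w1118 alone). The cytochrome P450 gene Cyp12c1 had no read in either Red* library, against 2.90 and 3.13 FPKM in w1118 eggs (log2 difference -2.0, over the minimum in w1118 alone). All 4 messages were at similarly low levels in White* and Fab2L eggs, whose highest value among them was 0.356 FPKM, for CG12519.

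In the other direction, CG4570 was the gene with the largest rise. It had 249.5 and 230.3 FPKM in Red* eggs, against 19.4 and 17.6 FPKM in w1118 eggs (log2 difference 3.63, SE 0.07, adjusted p = 5.69e-08), from 11063 and 9297 reads in Red* eggs, against 810 and 756 reads in w1118 eggs, at chr3R:10856807-10858066. Its neighbours on both sides, chosen after their values were seen, also rose: CG4511 had 88.4 and 90.8 FPKM in Red* eggs, against 42.8 and 42.05 FPKM in w1118 eggs (log2 difference 1.06, SE 0.05, adjusted p = 2.54e-06), and CG6574 had 6.69 and 6.14 FPKM in Red* eggs, against 1.72 and 1.63 FPKM in w1118 eggs (log2 difference 1.47, SE 0.07, adjusted p = 5.54e-06). These were the 3 consecutive tested genes at chr3R:10854501-10862988, and in White* and Fab2L eggs all 3 stood near or above their Red* level, far from that of w1118. Whether reads of neighbouring transcripts were kept apart was not tested.

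Rdh1, named as a retinol dehydrogenase, had 11.7 and 11.7 FPKM in Red* eggs, against 1.17 and 1.31 FPKM in w1118 eggs (log2 difference 2.51, SE 0.08, adjusted p = 4.33e-07). Abcd3, a transporter of the peroxisomal membrane, had 21.5 and 22.8 FPKM in Red* eggs, against 5.20 and 4.76 FPKM in w1118 eggs (log2 difference 1.95, SE 0.07, adjusted p = 5.62e-07). CG7408 had 5.80 and 5.81 FPKM in Red* eggs, against 0.533 and 0.693 FPKM in w1118 eggs (log2 difference 2.08, over the minimum in Red* alone), and CG30108 had 7.21 and 6.16 FPKM in Red* eggs, against 0.766 and 1.22 FPKM in w1118 eggs (log2 difference 1.95, SE 0.17, adjusted p = 8.27e-05). Naglu, a lysosomal glucosaminidase named after its values were seen, had 144 and 138 FPKM in Red* eggs, against 36.4 and 38.2 FPKM in w1118 eggs (log2 difference 1.89, SE 0.05, adjusted p = 2.14e-07). Every Red* library lay above both w1118 libraries for these 5 genes, several-fold in each case. Like many genes named here, Rdh1, Abcd3, CG7408, narya and Ugt36E1 overlap another annotated gene. Since the use of strand in counting is not given in the sources used here, reads of such a pair cannot be told apart.

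**Figure D2:**
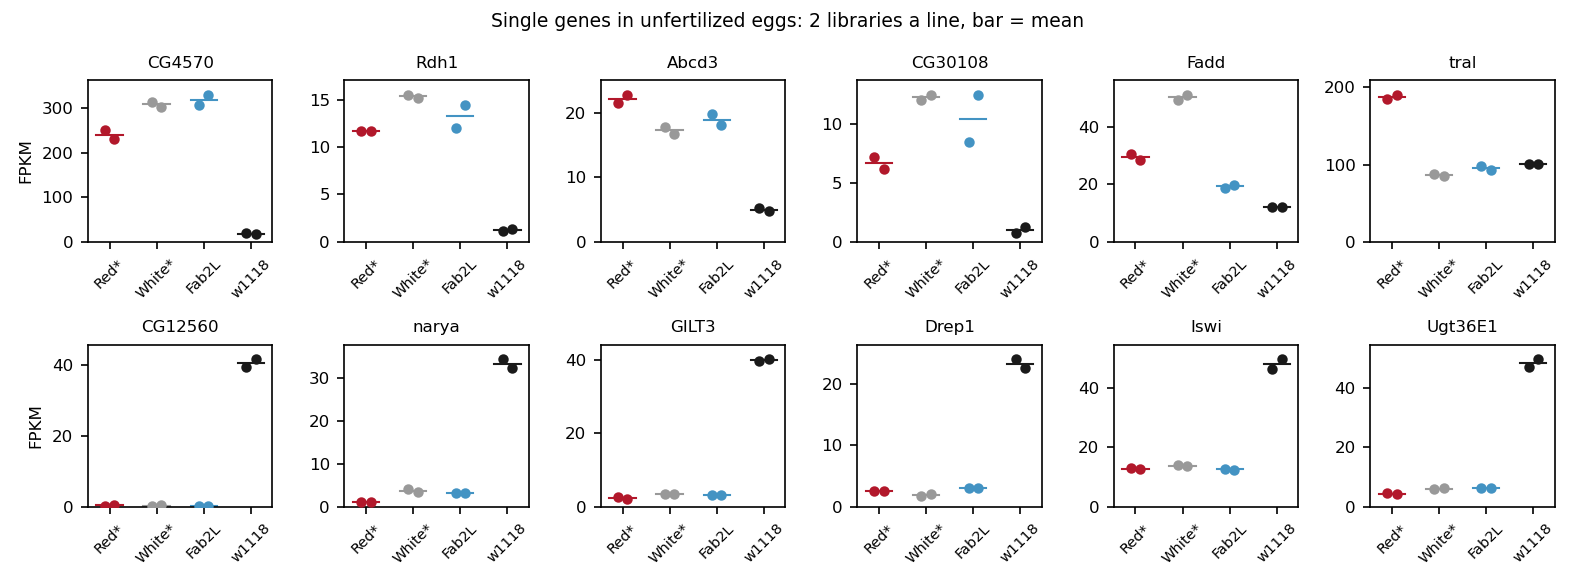
FPKM of 12 genes in each of 2 egg libraries of Red*, White*, Fab2L and w1118, with a bar at the mean. In 10 of them White* and Fab2L lie closer to Red* than to w1118; tral is high in Red* alone, and Fadd differs between all 4 lines.

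The contrasts of White* and of Fab2L with w1118 share its libraries with the contrast described here, so their values are only set side by side. CG4570 stood at 314 and 302 FPKM in White* eggs and 306 and 329.7 FPKM in Fab2L eggs, Drep1 at 1.74 and 2.01 FPKM in White* eggs and 3.00 and 2.99 FPKM in Fab2L eggs and Ugt36E1 at 5.93 and 6.18 FPKM in White* eggs and 6.35 and 6.21 FPKM in Fab2L eggs. For those genes w1118 was the line that stood apart. A few genes set Red* apart from all others. wge, winged eye, a chromatin protein with a BAH domain, had 1.11 and 0.965 FPKM in Red* eggs, against 8.61 and 8.35 FPKM in w1118 eggs (log2 difference -2.22, SE 0.07, adjusted p = 3.32e-07), with 8.19 and 7.50 FPKM in White* eggs and 8.64 and 8.33 FPKM in Fab2L eggs. CG7460 had 2.41 and 2.29 FPKM in Red* eggs, against 11.8 and 12 FPKM in w1118 eggs (log2 difference -1.94, SE 0.05, adjusted p = 2.22e-07), with 9.09 and 8.80 FPKM in White* eggs and 10.9 and 10.3 FPKM in Fab2L eggs. These 2 were chosen after their values were seen. tral, trailer hitch, a component of maternal ribonucleoprotein particles, was the germ plasm list's largest rise, with 185 and 191 FPKM in Red* eggs, against 101 and 101 FPKM in w1118 eggs (log2 difference 0.89, SE 0.05, adjusted p = 9.38e-06) and 88.3 and 85.1 FPKM in White* eggs and 97.6 and 92.9 FPKM in Fab2L eggs. Hsp23, a small heat shock protein gene, had 10.3 and 9.25 FPKM in Red* eggs, against 23.6 and 24.5 FPKM in w1118 eggs (log2 difference -1.22, SE 0.06, adjusted p = 4.17e-06), with 22.7 and 22.8 FPKM in White* eggs and 21.9 and 22.8 FPKM in Fab2L eggs. For wge, CG7460, tral and Hsp23 the 2 Red* libraries did not overlap with the 6 libraries of the other 3 lines.

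Of the messages for PRC2 subunits, 8 were tested and 3 called higher in Red*, 0 lower and 5 in neither direction, and the median was 0.11. Of the list 37.5% were called, and the rescaling gave 5 higher and 0 lower. Among all genes 44.5% were called. Su(z)12, a core subunit, had 7.60 and 7.22 FPKM in Red* eggs, against 4.43 and 4.48 FPKM in w1118 eggs (log2 difference 0.62, SE 0.06, adjusted p = 0.000138). E(z), the methyltransferase, had 38.3 and 38.9 FPKM in Red* eggs, against 27.7 and 27.1 FPKM in w1118 eggs (log2 difference 0.48, SE 0.06, adjusted p = 0.000837). escl, an alternative to the core subunit esc, had 24.8 and 27.3 FPKM in Red* eggs, against 21.1 and 20.97 FPKM in w1118 eggs (log2 difference 0.29, SE 0.06, adjusted p = 0.00445), while esc itself had 37.7 and 32.8 FPKM in Red* eggs, against 34.6 and 34.96 FPKM in w1118 eggs (log2 difference 0.02, SE 0.07, adjusted p = 0.85). The White* and Fab2L levels of Su(z)12 and E(z) lay between those of Red* and w1118, at 6.17 and 5.68 FPKM in White* eggs and 5.88 and 5.72 FPKM in Fab2L eggs for Su(z)12 and 32.5 and 37.3 FPKM in White* eggs and 32.5 and 32.5 FPKM in Fab2L eggs for E(z). All 3 calls stood with each of the 4 libraries left out in turn.

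In the list of PRC1 and the deubiquitinating complex PR-DUB, of 9 genes tested, 2 were called higher in Red*, 0 lower and 7 in neither direction. The called share was 22.2%, and the rescaled libraries gave 8 higher and 0 lower. They numbered 1 higher and 0 lower without Red* replicate 1 and 1 higher and 0 lower without w1118 replicate 2. Kdm2, a subunit of a PRC1 variant, had 12.2 and 12.3 FPKM in Red* eggs, against 9.36 and 9.76 FPKM in w1118 eggs (log2 difference 0.33, SE 0.05, adjusted p = 0.00149). Sce, the ubiquitin ligase of PRC1, had 22.02 and 19.9 FPKM in Red* eggs, against 18.98 and 16.6 FPKM in w1118 eggs (log2 difference 0.23, SE 0.08, adjusted p = 0.0481), and its call was lost without Red* replicate 1, without w1118 replicate 2 and in several other settings. Pc, the chromodomain subunit, had 13.8 and 13.9 FPKM in Red* eggs, against 13.9 and 13.3 FPKM in w1118 eggs (log2 difference 0.02, SE 0.06, adjusted p = 0.82). ph-p stood just under the level minimum at 0.957 and 0.943 FPKM in Red* eggs, against 0.943 and 0.928 FPKM in w1118 eggs. Of the recruiters, 7 were tested and 0 called higher in Red*, 1 lower and 6 in neither direction. Called genes made up 14.3% of the list, and numbered 4 higher and 0 lower after the rescaling. The counts were 1 higher and 2 lower without Red* replicate 1, 0 higher and 0 lower without Red* replicate 2, 1 higher and 0 lower without w1118 replicate 1 and 0 higher and 0 lower without w1118 replicate 2. The gene called was pho, which encodes a DNA-binding recruiter, with 106 and 66.01 FPKM in Red* eggs, against 122 and 127 FPKM in w1118 eggs (log2 difference -0.57, SE 0.18, adjusted p = 0.0355); the low value was that of Red* replicate 2, and the call was lost without that library, without either w1118 library, after the rescaling and in some other settings. Without Red* replicate 2 its difference was -0.23.

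Among the Trithorax group genes, which oppose Polycomb silencing, of 23 genes tested, 5 were called higher in Red*, 2 lower and 16 in neither direction. Of the list 30.4% were called, and the rescaling gave 15 higher and 1 lower. Leaving out 1 library gave 3 higher and 3 lower without Red* replicate 1, 3 higher and 2 lower without Red* replicate 2, 3 higher and 2 lower without w1118 replicate 1 and 2 higher and 2 lower without w1118 replicate 2. Iswi, the ATPase of several nucleosome-spacing remodellers, fell furthest: 12.9 and 12.6 FPKM in Red* eggs, against 46.2 and 49.5 FPKM in w1118 eggs (log2 difference -1.83, SE 0.05, adjusted p = 2.22e-07). It lies at chr2R:12636671-12640628. White* and Fab2L held as little of it as Red*, at 13.8 and 13.7 FPKM in White* eggs and 12.8 and 12.3 FPKM in Fab2L eggs. Bap111, a subunit of the Brahma remodeller, had 19.7 and 20.3 FPKM in Red* eggs, against 15.4 and 14.6 FPKM in w1118 eggs (log2 difference 0.40, SE 0.08, adjusted p = 0.00563), and kis, a chromodomain helicase, had 33.03 and 33.6 FPKM in Red* eggs, against 40.1 and 41.5 FPKM in w1118 eggs (log2 difference -0.28, SE 0.04, adjusted p = 0.00172); the call of kis was lost after the rescaling. Of the insulator proteins, 14 were tested and 3 called higher in Red*, 0 lower and 11 in neither direction. The called share was 21.4%, and the rescaled libraries gave 11 higher and 0 lower. They numbered 2 higher and 1 lower without Red* replicate 2. Chro, a chromodomain partner of insulators, had 62.3 and 67.2 FPKM in Red* eggs, against 51.4 and 53.6 FPKM in w1118 eggs (log2 difference 0.30, SE 0.05, adjusted p = 0.0037).

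In the heterochromatin list, of 14 genes tested, 1 was called higher in Red*, 5 lower and 8 in neither direction, and its median relative to all genes was -0.08 as deposited and -0.10 after the rescaling. Called genes made up 42.9% of the list, and numbered 7 higher and 0 lower after the rescaling. The counts were 1 higher and 3 lower without w1118 replicate 1 and 0 higher and 3 lower without w1118 replicate 2. Su(var)3-9, a histone methyltransferase, had 18.9 and 18.7 FPKM in Red* eggs, against 24.1 and 23.4 FPKM in w1118 eggs (log2 difference -0.32, SE 0.04, adjusted p = 0.000819). Su(var)3-3, a histone demethylase, had 18.5 and 17.1 FPKM in Red* eggs, against 22.8 and 22.4 FPKM in w1118 eggs (log2 difference -0.33, SE 0.05, adjusted p = 0.00161). The calls of both were lost after the rescaling. Of 6 histone variants tested, cid, the centromeric one, rose most, with 49.6 and 51.1 FPKM in Red* eggs, against 31.03 and 23.4 FPKM in w1118 eggs (log2 difference 0.88, SE 0.11, adjusted p = 0.000597) and 29.5 and 28.1 FPKM in White* eggs and 32.96 and 31.5 FPKM in Fab2L eggs, and was called in every alternative run.

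The piRNA pathway silences transposons in the germ line, and of 26 genes tested, 2 were called higher in Red*, 6 lower and 18 in neither direction. Of the list 30.8% were called, against 44.5% over all genes, and the rescaling gave 12 higher and 3 lower. Leaving out 1 library gave 1 higher and 3 lower without w1118 replicate 2. Its largest decreases were in Gasz, a mitochondrial scaffold of piRNA biogenesis, with 41.5 and 36.6 FPKM in Red* eggs, against 71.2 and 71.1 FPKM in w1118 eggs (log2 difference -0.85, SE 0.07, adjusted p = 6.61e-05), in qin, a Tudor-domain protein, with 7.41 and 7.32 FPKM in Red* eggs, against 11.8 and 11.5 FPKM in w1118 eggs (log2 difference -0.60, SE 0.05, adjusted p = 8.3e-05), and in piwi itself, with 50.8 and 52.3 FPKM in Red* eggs, against 76.6 and 78.96 FPKM in w1118 eggs (log2 difference -0.58, SE 0.04, adjusted p = 4.44e-05). For all 3, both Red* libraries lay below both w1118 libraries, and White* and Fab2L eggs also held less of each than w1118 eggs, with piwi at 64.7 and 66.02 FPKM in White* eggs and 54.6 and 54.5 FPKM in Fab2L eggs. cuff, which licenses piRNA cluster transcription, rose, with 6.41 and 6.10 FPKM in Red* eggs, against 4.24 and 4.57 FPKM in w1118 eggs (log2 difference 0.42, SE 0.09, adjusted p = 0.00569). In the miRNA and siRNA machinery, of 13 genes tested, 4 were called higher in Red*, 1 lower and 8 in neither direction. The called share was 38.5%, and the rescaled libraries gave 6 higher and 0 lower. They numbered 4 higher and 0 lower without Red* replicate 1, 2 higher and 0 lower without Red* replicate 2, 3 higher and 0 lower without w1118 replicate 1 and 3 higher and 0 lower without w1118 replicate 2. AGO2, the siRNA effector, had 43.3 and 52.7 FPKM in Red* eggs, against 32.5 and 33.6 FPKM in w1118 eggs (log2 difference 0.52, SE 0.08, adjusted p = 0.00209), with 29.9 and 29.8 FPKM in White* eggs and 26.9 and 25.3 FPKM in Fab2L eggs.

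Axis and germ plasm messages were called in both directions. In that list, of 29 genes tested, 5 were called higher in Red*, 7 lower and 17 in neither direction, with a median of 0.01. Called genes made up 41.4% of the list, and numbered 16 higher and 1 lower after the rescaling. The counts were 3 higher and 7 lower without Red* replicate 1, 3 higher and 4 lower without Red* replicate 2, 2 higher and 4 lower without w1118 replicate 1 and 1 higher and 3 lower without w1118 replicate 2. That share lay close to the 44.5% over all genes. Beside tral, BicD, a dynein adaptor of mRNA transport, fell, with 9.39 and 7.57 FPKM in Red* eggs, against 13.6 and 13.8 FPKM in w1118 eggs (log2 difference -0.64, SE 0.09, adjusted p = 0.000841). bcd, the anterior determinant, had 23.6 and 21.2 FPKM in Red* eggs, against 29.1 and 26.7 FPKM in w1118 eggs (log2 difference -0.31, SE 0.08, adjusted p = 0.0187), a call that was lost without Red* replicate 2, without w1118 replicate 1, with no filter on low values and after the rescaling.

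Of the genes for egg activation and clearance of maternal mRNA, 16 were tested and 4 called higher in Red*, 2 lower and 10 in neither direction. Of the list 37.5% were called, and the rescaling gave 8 higher and 0 lower. Leaving out 1 library gave 3 higher and 1 lower without w1118 replicate 2. gnu, an activator of the PNG kinase that drives the first divisions, had 80.7 and 92.2 FPKM in Red* eggs, against 62.9 and 55.3 FPKM in w1118 eggs (log2 difference 0.54, SE 0.11, adjusted p = 0.00553), and plu, its partner, had 80.3 and 74.04 FPKM in Red* eggs, against 97.02 and 97.4 FPKM in w1118 eggs (log2 difference -0.33, SE 0.06, adjusted p = 0.00318), a call lost after the rescaling. In the spindle and cell cycle list, of 26 genes tested, 5 were called higher in Red*, 5 lower and 16 in neither direction. The called share was 38.5%, and the rescaled libraries gave 15 higher and 0 lower. They numbered 3 higher and 3 lower without Red* replicate 2, 3 higher and 3 lower without w1118 replicate 1 and 2 higher and 3 lower without w1118 replicate 2. mad2, a spindle checkpoint gene, rose most, with 159 and 174 FPKM in Red* eggs, against 102 and 98.6 FPKM in w1118 eggs (log2 difference 0.72, SE 0.06, adjusted p = 5.42e-05), and sub, a kinesin of the meiotic spindle, had 91.2 and 96.1 FPKM in Red* eggs, against 64.7 and 67.2 FPKM in w1118 eggs (log2 difference 0.50, SE 0.05, adjusted p = 0.000299). Of the DNA replication genes, 16 were tested and 6 called higher in Red*, 2 lower and 8 in neither direction. Called genes made up 50.0% of the list, and numbered 14 higher and 0 lower after the rescaling. The counts were 3 higher and 2 lower without Red* replicate 2, 3 higher and 2 lower without w1118 replicate 1 and 3 higher and 2 lower without w1118 replicate 2. Orc6, an origin recognition subunit whose gene overlaps Sting, had 67.6 and 74.1 FPKM in Red* eggs, against 48.2 and 51.8 FPKM in w1118 eggs (log2 difference 0.49, SE 0.06, adjusted p = 0.000619), while PCNA, the polymerase clamp, had 119 and 124 FPKM in Red* eggs, against 162 and 150.5 FPKM in w1118 eggs (log2 difference -0.36, SE 0.07, adjusted p = 0.00395), a call lost after the rescaling.

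More messages of the protein synthesis and respiration machinery were called lower than higher as deposited, mostly by small amounts. The share called in either direction was 36.25% for cytosolic and 51.4% for mitochondrial ribosomal proteins. It was 40.0% for nuclear oxidative phosphorylation and 52.9% for the proteasome, against 44.5% over all genes. Of the cytosolic ribosomal protein genes, 80 were tested and 2 called higher in Red*, 27 lower and 51 in neither direction; 11 to 30 were called lower with 1 of the 4 libraries left out (11 without w1118 replicate 1). The median relative to all genes was -0.13 as deposited and -0.12 after the rescaling, and the counts after the rescaling were 19 higher and 5 lower, where 3429 of all genes were called higher and 488 lower. RpL5 had 587 and 523 FPKM in Red* eggs, against 811 and 906 FPKM in w1118 eggs (log2 difference -0.63, SE 0.08, adjusted p = 0.000734). RpS21 had 314 and 235 FPKM in Red* eggs, against 498 and 407 FPKM in w1118 eggs (log2 difference -0.73, SE 0.14, adjusted p = 0.00491).

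Of the mitochondrial ribosomal protein genes, 70 were tested and 4 called higher in Red*, 32 lower and 34 in neither direction; 22 to 28 were called lower with 1 of the 4 libraries left out. Their median relative to all genes was -0.16 as deposited and -0.15 after the rescaling, and the counts after the rescaling were 16 higher and 14 lower. mRpL54 had 31.96 and 34.1 FPKM in Red* eggs, against 70.98 and 70.5 FPKM in w1118 eggs (log2 difference -1.08, SE 0.06, adjusted p = 1.13e-05), and mRpL2 had 12.4 and 11.1 FPKM in Red* eggs, against 24.2 and 23.1 FPKM in w1118 eggs (log2 difference -0.95, SE 0.07, adjusted p = 5.42e-05). White* and Fab2L lay with Red* for mRpL54, at 35.3 and 39.4 FPKM in White* eggs and 32.1 and 31.99 FPKM in Fab2L eggs.

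Of the nuclear genes of oxidative phosphorylation, 60 were tested and 7 called higher in Red*, 17 lower and 36 in neither direction; 11 to 17 were called lower with 1 of the 4 libraries left out (11 without Red* replicate 2, 11 without w1118 replicate 1). After the rescaling the counts were 23 higher and 6 lower. ND-B14, a complex I subunit, fell, with 14.2 and 14.7 FPKM in Red* eggs, against 30.2 and 27.3 FPKM in w1118 eggs (log2 difference -0.94, SE 0.06, adjusted p = 2.77e-05), whereas UQCR-C2, a complex III subunit, rose, with 56.3 and 58.5 FPKM in Red* eggs, against 38.3 and 29.97 FPKM in w1118 eggs (log2 difference 0.74, SE 0.14, adjusted p = 0.00399). In the proteasome list, of 34 genes tested, 8 were called higher in Red*, 10 lower and 16 in neither direction, and 13 higher and 2 lower after the rescaling; without w1118 replicate 2 it was 4 higher and 7 lower. Prosbeta4 had 204 and 189.8 FPKM in Red* eggs, against 305 and 307 FPKM in w1118 eggs (log2 difference -0.64, SE 0.06, adjusted p = 0.000138) and Rpn13, a ubiquitin receptor, had 77.3 and 80.9 FPKM in Red* eggs, against 55.6 and 50.0 FPKM in w1118 eggs (log2 difference 0.57, SE 0.07, adjusted p = 0.000422).

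Differences by transcript length are set beside these groups. Among protein-coding genes other than the clustered histone copies, the 76 of at most 500 nt had a median difference of -0.26, with 3 called higher and 40 lower. The 755 of 501 to 1000 nt had a median of -0.10, with 98 higher and 226 lower. The shares called in these 2 classes were 56.6% and 42.9%, against 44.5% over all genes. Among the 2038 of 1001 to 2000 nt the median was -0.01, and it was 0.03 among the 2042 of 2001 to 4000 nt and 0.04 among the 1236 longer ones. The part of length in the ribosomal protein result was not tested.

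**Figure D3:**
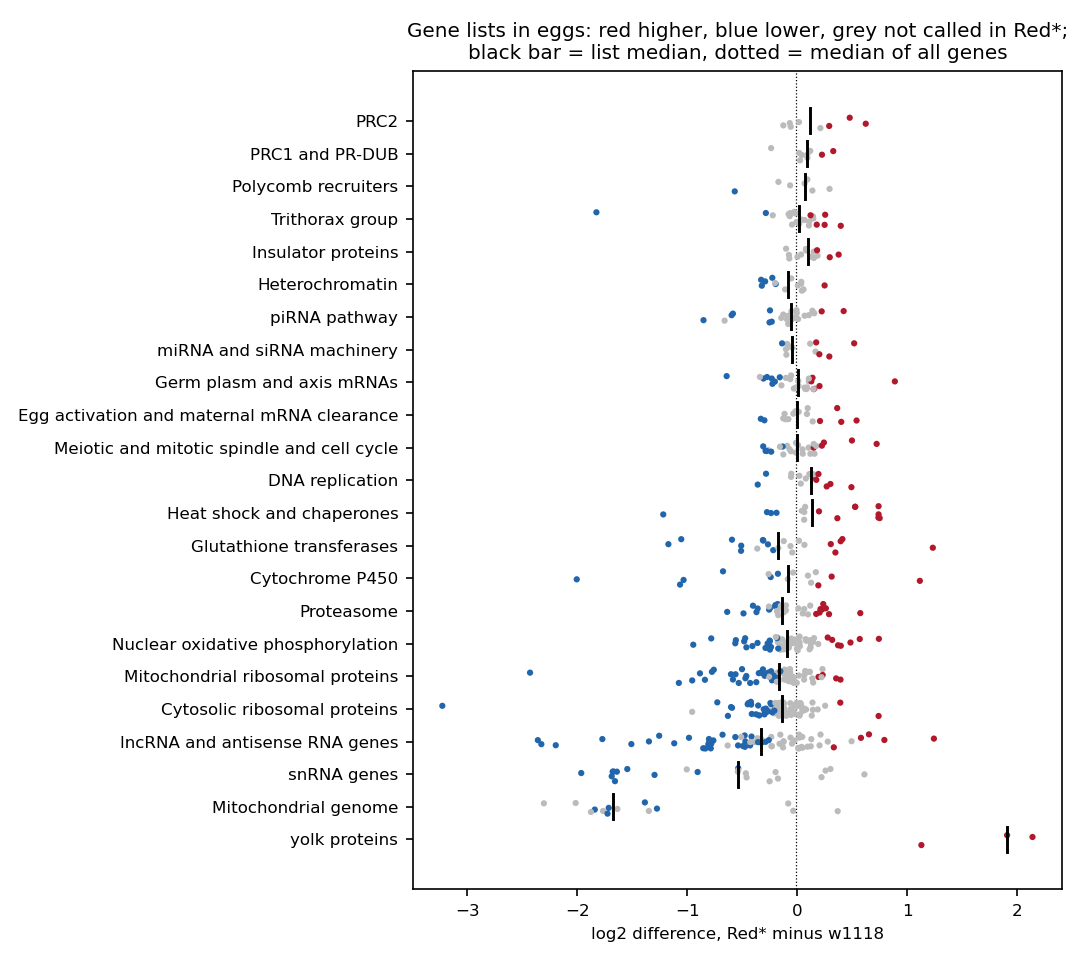
Log2 differences, Red* minus w1118, of the tested members of 23 gene lists, 1 point a gene, with called genes in red (higher in Red*) and blue (lower), the list median as a black bar and the median of all genes dotted. Ribosomal protein, snRNA, lncRNA and mitochondrial genome lists lie to the left as deposited, PRC2 and insulator lists slightly to the right.

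The transcripts of the mitochondrial genome, of which 35.7% of those tested were called, had their lowest sum in Red* replicate 2. Of them, 14 were tested and 0 called higher in Red*, 5 lower and 9 in neither direction, and 0 to 11 were called lower with 1 of the 4 libraries left out (11 without Red* replicate 1, 3 without Red* replicate 2, 0 without w1118 replicate 1, 0 without w1118 replicate 2). mt:CoI, cytochrome oxidase subunit I, had 3445 and 1002 FPKM in Red* eggs, against 5191 and 4544 FPKM in w1118 eggs (log2 difference -1.39, SE 0.46, adjusted p = 0.0416), with 4004 and 5049 FPKM in White* eggs and 3531 and 3378 FPKM in Fab2L eggs. Without Red* replicate 2 its difference was -0.50 (called). Its call was lost without either w1118 library, and by edgeR and DESeq2. mt:ATPase6 had 1138 and 293 FPKM in Red* eggs, against 2149 and 1675 FPKM in w1118 eggs (log2 difference -1.71, SE 0.52, adjusted p = 0.0303) and also lost its call without either w1118 library. Red* replicate 2 was the lowest of the 8 libraries for both, and Red* replicate 1 lay between the 2 Fab2L libraries for mt:CoI.

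Several short structural RNAs were lower in Red* eggs. 7SLRNA:CR32864, the RNA of the signal recognition particle, was the most abundant gene of the libraries, with 45360.0 and 41930.0 FPKM in Red* eggs, against 133900.0 and 116200.0 FPKM in w1118 eggs (log2 difference -1.52, SE 0.25, adjusted p = 0.0024). It has a second copy, 7SLRNA:CR42652, with nearly equal values, so the share of each copy is uncertain. Both calls were lost with no filter on low values. White* and Fab2L eggs lay in between, at 68470.0 and 93530.0 FPKM in White* eggs and 77700.0 and 46560.0 FPKM in Fab2L eggs. RNaseMRP:RNA, the RNA of a processing ribonuclease, had 3437 and 3462 FPKM in Red* eggs, against 6528 and 7519 FPKM in w1118 eggs (log2 difference -1.02, SE 0.17, adjusted p = 0.00226). Of the spliceosomal snRNA genes, 22 were tested and 0 called higher in Red*, 10 lower and 12 in neither direction. The called share was 45.45%, against 44.5% over all genes. With 1 of the 4 libraries left out, 9 to 11 were called lower. The U2 copies snRNA:U2:14B, snRNA:U2:34ABa and snRNA:U2:38ABa fell by 1.67 to 1.69 on the log2 scale and cannot be told apart; the first had 1024 and 812 FPKM in Red* eggs, against 3110.0 and 2743 FPKM in w1118 eggs. Only 3 of those 22 snRNA genes are longer than the 200 nt that the labels give as the lower limit of the long RNA fraction. Of 43 snoRNA genes tested, 38 of them no longer than that limit, 1 was called higher and 20 lower, where 44.5% of all genes were called. The part of size selection in these results was not tested.

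Of the long noncoding RNA genes, 66 were tested and 5 called higher in Red*, 30 lower and 31 in neither direction; 22 to 30 were called lower with 1 of the 4 libraries left out. The called share was 53.0%, against 44.5% over all genes. Of those tested, 11 were over the minimum in w1118 alone and 2 in Red* alone. The list had a median relative to all genes of -0.32 as deposited and -0.35 after the rescaling and 11 higher and 22 lower after the rescaling. lncRNA:CR43837 had 4.77 and 4.25 FPKM in Red* eggs, against 26.8 and 27.8 FPKM in w1118 eggs (log2 difference -2.36, SE 0.07, adjusted p = 4.33e-07). lncRNA:CR43242 had 0.678 and 0.802 FPKM in Red* eggs, against 6.71 and 7.23 FPKM in w1118 eggs (log2 difference -2.20, over the minimum in w1118 alone). lncRNA:CR32773 had 0.456 and 0.468 FPKM in Red* eggs, against 6.29 and 6.39 FPKM in w1118 eggs (log2 difference -2.33, over the minimum in w1118 alone), but it overlaps many other genes, among them rb, and whether the counting used strand is not given in the sources used here.

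The replication-dependent histone genes lie in one tandem array of near-identical copies on chromosome 2L, so the split of reads among copies is uncertain. In this array, of 108 genes tested, 27 were called higher in Red*, 40 lower and 41 in neither direction. Of the list 62.04% were called, and the rescaling gave 28 higher and 30 lower. Called copies of the same histone moved in opposite directions for His1, His2B and His3. The 4 called His4 copies were all lower, and none of the 20 His2A copies was called. His1:CG33855 had 795 and 758 FPKM in Red* eggs, against 104 and 108 FPKM in w1118 eggs (log2 difference 2.86, SE 0.08, adjusted p = 2.14e-07), whereas over all 23 His1 copies 3 were called higher and 17 lower, with differences between -1.54 and 2.86. Summed over copies, His1 stood at 24752 and 22269 FPKM in Red* eggs, against 36792 and 37783 FPKM in w1118 eggs. His3 copies ranged from -1.11 to 2.56, and 5 copies with the same values, His3:CG33818 among them, had 536 and 445 FPKM in Red* eggs, against 80.7 and 83.2 FPKM in w1118 eggs. His2B:CG33868 had 40.4 and 46.5 FPKM in Red* eggs, against 232 and 249 FPKM in w1118 eggs (log2 difference -2.44, SE 0.09, adjusted p = 6.38e-07), while the other 19 His2B copies were called higher. The White* and Fab2L values of His1:CG33855, at 880.2 and 1021 FPKM in White* eggs and 827 and 838 FPKM in Fab2L eggs, and of His2B:CG33868, at 47.3 and 53.7 FPKM in White* eggs and 53.1 and 50.2 FPKM in Fab2L eggs, lay with those of Red*.

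Stress and detoxification genes were called in both directions. In the heat shock and chaperone list, of 16 genes tested, 8 were called higher in Red*, 4 lower and 4 in neither direction. The called share was 75%, and the rescaled libraries gave 12 higher and 1 lower. They numbered 8 higher and 2 lower without Red* replicate 2, 7 higher and 2 lower without w1118 replicate 1 and 6 higher and 1 lower without w1118 replicate 2. The 6 Hsp70 copies were all called higher, by 0.53 to 0.75, although copies of this gene share reads. Hsp70Bbb had 5.63 and 5.36 FPKM in Red* eggs, against 3.02 and 2.70 FPKM in w1118 eggs (log2 difference 0.75, SE 0.08, adjusted p = 0.000336), with 2.84 and 2.39 FPKM in White* eggs and 2.89 and 2.64 FPKM in Fab2L eggs, and Red* lay above the other 3 lines. Of the glutathione transferases, 21 were tested and 5 called higher in Red*, 9 lower and 7 in neither direction. Called genes made up 66.7% of the list, and numbered 7 higher and 5 lower after the rescaling. GstE1 had 26.5 and 25.5 FPKM in Red* eggs, against 10.1 and 10.9 FPKM in w1118 eggs (log2 difference 1.23, SE 0.06, adjusted p = 5.5e-06), and its neighbour GstE10, which overlaps it, had 0.0501 and 0 FPKM in Red* eggs, against 1.49 and 1.14 FPKM in w1118 eggs (log2 difference -1.17, over the minimum in w1118 alone). Of the cytochrome P450 genes, 15 were tested and 3 called higher in Red*, 6 lower and 6 in neither direction, but 3 of those tested were over the minimum in w1118 alone. The rescaled libraries gave 8 higher and 4 lower. Cyp6a17 had 6.98 and 7.18 FPKM in Red* eggs, against 2.38 and 3.11 FPKM in w1118 eggs (log2 difference 1.12, SE 0.12, adjusted p = 0.000292).

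Immune genes were represented by their signalling parts. None of the 15 antimicrobial peptide genes found passed the level minimum. In the Imd pathway, of 10 genes tested, 3 were called higher in Red*, 0 lower and 7 in neither direction. The called share was 30.0%, and the rescaled libraries gave 8 higher and 0 lower. They numbered 5 higher and 0 lower without Red* replicate 1. Fadd, the death-domain adaptor of that pathway, whose gene overlaps pit, had 30.7 and 28.4 FPKM in Red* eggs, against 12 and 12 FPKM in w1118 eggs (log2 difference 1.23, SE 0.05, adjusted p = 2.12e-06), and White* eggs held more of it than Red* eggs, at 49.5 and 51.2 FPKM in White* eggs and 18.9 and 19.9 FPKM in Fab2L eggs. Of the Dorsal group, the maternal pathway of the dorsoventral axis, 13 were tested and 2 called higher in Red*, 4 lower and 7 in neither direction. Called genes made up 46.2% of the list, and numbered 6 higher and 0 lower after the rescaling. The counts were 0 higher and 3 lower without Red* replicate 2, 1 higher and 2 lower without w1118 replicate 1 and 0 higher and 2 lower without w1118 replicate 2. The receptor gene Tl had 163 and 147 FPKM in Red* eggs, against 197 and 201 FPKM in w1118 eggs (log2 difference -0.36, SE 0.06, adjusted p = 0.00203), a call lost after the rescaling.

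The white gene, which the eye-colour reporter carries, had few reads in eggs. w, the white gene at chrX:2790599-2796466, had 0.0362 and 0.0133 FPKM in Red* eggs, against 0.231 and 0.199 FPKM in w1118 eggs, from 3 and 1 reads in Red* eggs, against 18 and 16 reads in w1118 eggs, under the level minimum, so it was not tested. In heads of adult males of the same lines it had 9.83 and 11.7 FPKM in Red* heads, against 0.193 and 0.228 FPKM in w1118 heads (log2 difference 3.28, limma adjusted p = 2.82e-05). Abd-B, the homeotic gene whose regulatory DNA supplied the Polycomb response element, had 0.00368 and 0 FPKM in Red* eggs and was at 0 in both w1118 egg libraries. Of the eye pigment genes, 12 were tested and 4 called higher in Red*, 4 lower and 4 in neither direction. Of the list 66.7% were called, and the rescaling gave 5 higher and 0 lower. Leaving out 1 library gave 4 higher and 2 lower without w1118 replicate 2. ca, a guanine nucleotide exchange factor homolog, had 9.03 and 9.13 FPKM in Red* eggs, against 6.79 and 6.49 FPKM in w1118 eggs (log2 difference 0.40, SE 0.06, adjusted p = 0.00107), and cl had 107 and 106 FPKM in Red* eggs, against 140.4 and 133 FPKM in w1118 eggs (log2 difference -0.36, SE 0.05, adjusted p = 0.00136), a call lost after the rescaling.

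Yolk protein messages, made by fat body and follicle cells rather than by the germ line, were low in every egg library. Yp3 had 5.60 and 4.90 FPKM in Red* eggs, against 0.372 and 0.455 FPKM in w1118 eggs (log2 difference 2.14, over the minimum in Red* alone). Yp2 had 5.06 and 5.69 FPKM in Red* eggs, against 0.579 and 0.815 FPKM in w1118 eggs (log2 difference 1.91, over the minimum in Red* alone), and Yp1 had 1.13 and 1.51 FPKM in Red* eggs, against 0.0562 and 0.0546 FPKM in w1118 eggs (log2 difference 1.13, over the minimum in Red* alone). The sum of all 3 was 11.8 and 12.1 FPKM in Red* eggs, against 1.01 and 1.32 FPKM in w1118 eggs, with 0.232 and 0.0731 FPKM in White* eggs and 3.00 and 2.85 FPKM in Fab2L eggs. Of the other fat body markers, fit had 1.34 and 1.47 FPKM in Red* eggs, against 0 and 0.221 FPKM in w1118 eggs (log2 difference 1.12, over the minimum in Red* alone), and apolpp, the lipophorin gene, had 3.46 and 2.44 FPKM in Red* eggs, against 0.734 and 0.917 FPKM in w1118 eggs (log2 difference 1.10, over the minimum in Red* alone). Those were the 2 of 9 fat body markers that passed the minimum. All 5 of these genes passed through Red* libraries alone, so their higher level in Red* is a description and not a test. The fat body list summed to 5.40 and 4.39 FPKM in Red* eggs, against 1.502 and 1.77 FPKM in w1118 eggs. Of 18 eggshell and follicle cell markers none passed the minimum, and their list summed to 0.446 and 0.251 FPKM in Red* eggs, against 0.899 and 0.912 FPKM in w1118 eggs. Midgut enzymes, of which Jon99Cii was tested (log2 difference -1.37, over the minimum in w1118 alone), summed to 1.13 and 0.905 FPKM in Red* eggs, against 5.83 and 5.31 FPKM in w1118 eggs. The part of fat body RNA in the yolk protein result was not tested.

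**Figure D4:**
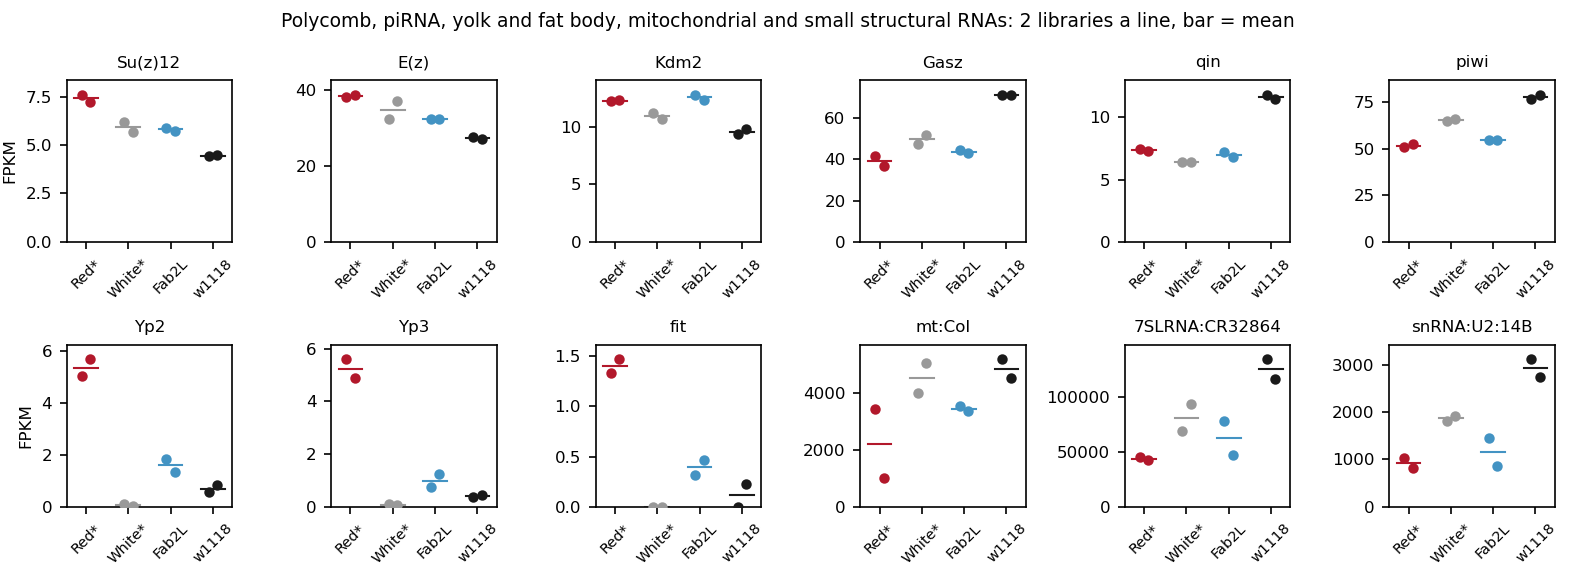
FPKM of 12 genes in each of 2 egg libraries of Red*, White*, Fab2L and w1118, with a bar at the mean, from y axes that start at 0. Su(z)12 and E(z) are highest in Red* and lowest in w1118, Yp2, Yp3 and fit are highest in Red*, and Red* replicate 2 is the low point for mt:CoI.

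Called genes were spread over all arms. The share called was 42.8% on X, 45.5% on 2L, 46.3% on 2R, 47.4% on 3L and 40.4% on 3R. The small chromosome 4 had 5 genes called higher and 27 lower of 55 tested (58.2%). Counts by arm were not repeated with a library left out. The call of pho, which lies on chromosome 4, was lost without Red* replicate 2. Outside the histone array, 160 of 6316 placed genes (2.53%) were called with a difference of at least 1, and 50 of 134 windows of 1 Mb held none. The window chr2R:12000001-13000000 held 7 of 78 tested genes, among them Drep1, CG30054 and Iswi, and chr3R:10000001-11000000 held 6 of 53, among them CG4511, CG4570 and CG6574.

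Heads of adult males of the same lines, 4 days old, from other libraries, were compared for the genes called in eggs. In heads 12.3% of 10874 genes tested were called. Of the egg-called genes, 2796 were tested in heads and 11.8% of these (329, of 1336 genes called in heads) were called there, 167 in the same direction and 162 in the opposite one. Of the genes not called in eggs, 10.9% were called in heads. Among genes called in eggs by at least 1, 185 were tested in heads. Of these, 22.7% (42) were called, 35 in the same direction and 7 in the opposite one. The 35 include histone copies such as His1:CG33855 and His1:CG33858, which had the same values and are not separate results. CG30054 was lower in both tissues, with 5.04 and 4.58 FPKM in Red* heads, against 54.1 and 49.7 FPKM in w1118 heads (log2 difference -3.19 in heads, limma adjusted p = 2.96e-05). GILT3 fell in both, with 0.845 and 0.914 FPKM in Red* heads, against 9.45 and 8.82 FPKM in w1118 heads (adjusted p = 0.00026). By contrast, GLaz had 26.6 and 29.6 FPKM in Red* heads, against 34.1 and 27.5 FPKM in w1118 heads (adjusted p = 0.549 in limma), and Drep1 had 18.7 and 17.03 FPKM in Red* heads, against 15 and 15.2 FPKM in w1118 heads (adjusted p = 0.102).

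The small RNA libraries of unfertilized eggs of the same lines gave a separate readout, as counts per miRNA hairpin in reads of 18 to 30 nt. The labels do not say whether they came from the same collections of eggs as the long RNA libraries. They were shallower, with 1140666 and 859238 counts in Red* eggs and 431047 and 502823 counts in w1118 eggs. Of 76 hairpins tested in edgeR's quasi-likelihood fit, 8 were called higher in Red* and 19 lower, 35.5% in all. With 1 small RNA library left out the counts moved: 19 higher and 23 lower without Red* replicate 1, 13 higher and 30 lower without Red* replicate 2, 5 higher and 11 lower without w1118 replicate 1, and 13 higher and 9 lower without w1118 replicate 2.

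A few hairpins differed by a wide margin. Levels are in CPM, counts scaled by library size with TMM. mir-986 had 1877 and 1696 CPM in Red* eggs, against 85.9 and 117 CPM in w1118 eggs (log2 difference 4.12, adjusted p = 2.3e-11). White* and Fab2L lay with Red*, at 1873 and 1787 CPM in White* eggs and 1671 and 1992 CPM in Fab2L eggs. mir-286, a member of the mir-309 cluster that clears maternal mRNA in the embryo, had 57.2 and 46.3 CPM in Red* eggs, against 1961 and 2152 CPM in w1118 eggs (log2 difference -5.30, adjusted p = 4.25e-12), with 60.8 and 47.8 CPM in White* eggs and 57.97 and 67.3 CPM in Fab2L eggs. mir-5, of the same cluster, had 7.38 and 12.4 CPM in Red* eggs, against 93.02 and 111 CPM in w1118 eggs (log2 difference -3.38, adjusted p = 7.05e-06). For these hairpins, in both directions, w1118 was the line apart. That did not hold for all hairpins called lower, since for several of them Red* too lay above White* and Fab2L. These were mir-1000, mir-252, mir-276a, mir-276b, mir-284, mir-315, mir-927, mir-957 and mir-981. Of them mir-276b, chosen after its values were seen, stood at 433 and 473 CPM in Red* eggs and 897 and 849 CPM in w1118 eggs. It had 82.1 and 91.5 CPM in White* eggs and 68.5 and 109 CPM in Fab2L eggs. The source of this pattern was not tested.

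mir-956 had 5576 and 5743 CPM in Red* eggs, against 1667 and 1533 CPM in w1118 eggs (log2 difference 1.82, adjusted p = 2.63e-09), with 2865 and 3027 CPM in White* eggs and 4577 and 4782 CPM in Fab2L eggs. mir-33, a regulator of lipid metabolism, had 3370.0 and 3885 CPM in Red* eggs, against 1586 and 1640.0 CPM in w1118 eggs (log2 difference 1.17, adjusted p = 3.09e-06), and Red* was the highest of the 4 lines. mir-318, a hairpin of the ovary, had 67.3 and 93.6 CPM in Red* eggs, against 360.1 and 328 CPM in w1118 eggs (log2 difference -2.10, adjusted p = 9.69e-06), and mir-994, beside it, had 25.8 and 22.6 CPM in Red* eggs, against 100.2 and 95.8 CPM in w1118 eggs (log2 difference -2.0, adjusted p = 0.000739). Of the most abundant hairpins, mir-311 had 324900.0 and 234000.0 CPM in Red* eggs, against 305700.0 and 284800.0 CPM in w1118 eggs (log2 difference -0.08, adjusted p = 0.666). mir-312 had 260800.0 and 289900.0 CPM in Red* eggs, against 230900.0 and 226700.0 CPM in w1118 eggs (log2 difference 0.27, adjusted p = 0.035), a call that was lost without w1118 replicate 1 of the small RNA libraries, where the adjusted p was 0.211.

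**Figure D5:**
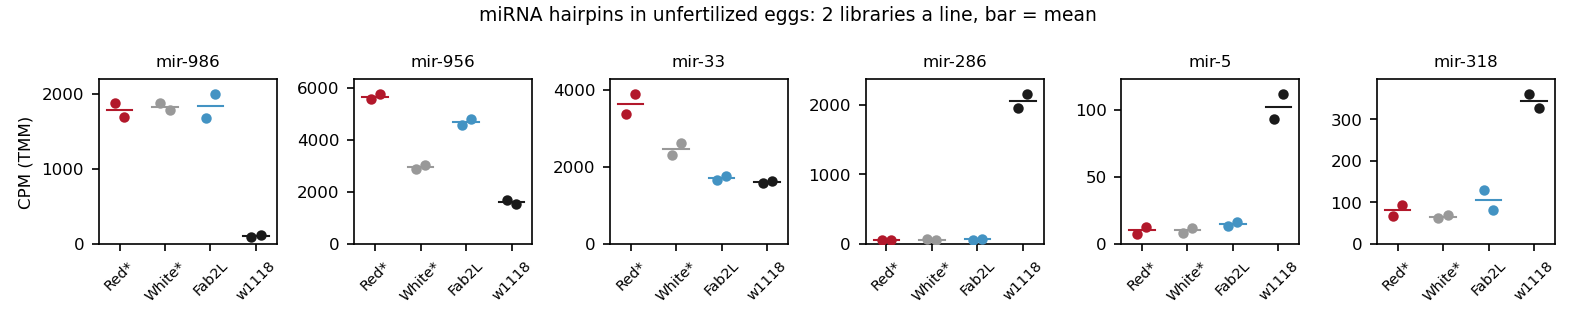
CPM (hairpin counts scaled by library with TMM) of 6 miRNA hairpins in each of 2 egg libraries of Red*, White*, Fab2L and w1118, with a bar at the mean. mir-986 is low in w1118 alone, and mir-286 and mir-5 are high in w1118 alone.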

How the data were processed

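Long RNA (over 200 nt, ribosomal RNA depleted) and small RNA of unfertilized eggs were sequenced. The submitters' processing notes name STAR 2.5, Bowtie, Bowtie2, Picard, SAMtools and DESeq2 with genome build dm6. The FPKM values per gene were deposited by the authors. The small RNA counts per miRNA hairpin and read length were also deposited by the authors. The counting tool, annotation and use of strand are not given in the sources used here. Where titles and file names disagreed on the replicate number of a Red* library, titles were used.

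Genes over 1 FPKM in at least 2 of 4 libraries were tested on log2(FPKM + 1), with the pseudocount of 1 shrinking changes of low genes, by limma 3.58.1 in R 4.3.3. All 8 egg libraries of 4 lines shared the estimate of spread, and p-values were Benjamini-Hochberg adjusted over all tested genes. Whole reads were recovered from the FPKM steps for all 6631 genes (tolerance 0.001) and tested with edgeR 4.0.16 and DESeq2 1.42.0 as alternatives. Hairpin counts of reads of 18 to 30 nt were tested with edgeR's quasi-likelihood fit. The scripts were tested on simulated data. Python 3.11.15, pandas 2.3.3 and matplotlib 3.10.9 made tables and figures.

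Named genes are the 15 largest called differences in each direction among genes whose lines did not overlap (small RNA genes left out), the most abundant called genes, up to 4 called members of each list and the markers, beside genes said to be chosen after their values were seen. The members and lists were chosen with earlier results of these data known. Nothing in the labels says that replicates were separate cultures, so p-values measure the spread between libraries, which may be technical. Positions are those of the RefSeq table of the same build.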

Additional observations from a re-analysis of the deposited data

Results flagged for a closer look

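The difference between Red* and w1118 was not the same in eggs and in adult heads for 40 of the named genes. Each had an interaction of line and tissue at an adjusted p below 0.05 in limma, over 6334 genes with both tissues in the fit, and effects that differed by at least 1 on the log2 scale. In that fit 2097 genes passed the p alone, 78 of the 130 named genes among them. Many named genes were chosen for large egg differences, which the interaction uses again, so these counts are a description. In eggs CG12560, GLaz, RpS10a, Cyp12c1, CR43670 and Cyp317a1 were over the level minimum in w1118 alone. CG32187 and CG7408 were over it in Red* alone, like Yp2, Yp3, fit and apolpp. For all of these the interaction is a description and not a test. The values below are the log2 difference, Red* minus w1118, in eggs minus that in heads. Genes with a difference below 0 in both tissues, and further below in eggs, were CG12560 (-4.162), GLaz (-3.092), RpS10a (-3.018), His2B:CG33868 (-1.965), Ugt36E1 (-1.727), snRNA:U2:34ABa (-1.686), Uhg5 (-1.613), Iswi (-1.33), mRpS28 (-1.241), GILT3 (-1.211) and Cyp12c1 (-1.154). Genes with a difference below 0 in eggs and above 0 in heads were narya (-4.525), wge (-3.256), Drep1 (-2.995), CR43670 (-2.782), 28SrRNA-Psi:CR45860 (-2.757), snRNA:U1:95Cc (-2.666), CG7460 (-2.265), qin (-1.748), snRNA:U2:14B (-1.745), snRNA:U2:38ABa (-1.737), mRpL34 (-1.136), RNaseMRP:RNA (-1.118) and Cyp317a1 (-1.102). Of these, wge and qin were called in heads.

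Genes with a difference above 0 in both tissues, and further above in eggs, were Rdh1 (1.904), CG32187 (1.742), Abcd3 (1.741), CG7408 (1.674), Naglu (1.655), CG6574 (1.38) and CG30108 (1.095). Genes with a difference above 0 in eggs and below 0 in heads were Yp2 (5.881), Yp3 (5.591), fit (2.641), UQCR-C2 (2.031), RpL22 (1.899), GstE1 (1.883), apolpp (1.381) and Rpn13 (1.018). Of these, fit, UQCR-C2 and RpL22 were called in heads. piwi was lower in Red* eggs by a log2 difference of -0.58 and further below in heads at -1.92, a difference of 1.339. For Yp2 and Yp3 neither difference in heads was called (adjusted p = 0.18 and 0.075 in limma), and in eggs both genes, like fit and apolpp, were over the level minimum in Red* alone. Yp2 had 0.7598 and 0.5985 FPKM in Red* heads, against 252.1 and 1.727 FPKM in w1118 heads. Yp3 had 4.339 and 6.039 FPKM in Red* heads, against 262.7 and 15.99 FPKM in w1118 heads. The high head values of both genes were thus those of w1118 head replicate 1 alone. The copies of U2 share reads and are not separate results. With 2 libraries a line, no single library could be tested as standing apart from its group.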

How the results depend on the processing

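Removing the 20 most abundant genes gave 3429 genes higher in Red* and 488 lower, against 1501 and 1447. Asking for a difference of at least 1 gave 85 and 148, of which 27 and 29 were copies in the histone array. With 1 library left out, 998 to 1355 genes were called higher and 863 to 1492 lower, the fewest without w1118 replicate 2. A pseudocount of 0.1, no filter, an FPKM minimum of 5, median-ratio scaling, the 4 libraries alone, edgeR and DESeq2 gave 1236 to 1658 higher and 1123 to 1451 lower. Hairpins called higher, 8 as reported, numbered 15 with no filter on low counts, and 5 to 19 with 1 library left out, where 9 to 30 were called lower, against 19. Replicate numbers were not used as pairs. Deviations from the line means correlated at 0.015 between Red* and w1118 and at -0.192 to 0.372 between other pairs of lines. Titles and file names disagreed on Red* replicate numbers, so these values cannot decide whether libraries were paired. With the replicate block 1551 genes were called higher and 1462 lower, and 9 hairpins higher and 19 lower.

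The direction turned for few genes. After the removal of the 20 most abundant genes the difference was 0.029 for Tm1 and 0.0030 for gcl. With 1 library left out, it ranged from -0.012 to 0.050 for Pc, from -0.054 to 0.060 for crq, from -0.050 to 0.077 for norpA and from -0.134 to 0.132 for mir-311, which had 0.111 with no filter; none of these 4 was called as reported. Of 1935 values of 150 named genes, 1799 kept direction and call, 124 lost the call and 6 gained it. Of 105 values of the 15 hairpins chosen by size of change or abundance, 89 kept both. Apart from the rescaling itself, the causes were not tested.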

Other observations

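Members of the mir-309 cluster were at unequal levels in eggs. mir-286 had 62 and 41 counts in Red* eggs, against 822 and 1101 counts in w1118 eggs, and mir-5 had 8 and 11 counts in Red* eggs, against 39 and 57 in w1118 eggs. mir-3 had 2 and 0 counts in Red* eggs, against 3 and 3 in w1118 eggs, and mir-4 had 0 and 0 in Red* eggs, against 2 and 4 in w1118 eggs. mir-309, mir-6-1, mir-6-2 and mir-6-3 were at 0 in all 8 egg libraries.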
